A study of Mus musculus with 4 samples.

Results

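The cytosolic ribosomal protein genes are the protein-coding genes that encode the protein subunits of the ribosome in the cytoplasm. They were chosen by name from the GENCODE M21 annotation of the mouse assembly mm10, as symbols of the form Rpl or Rps with digits and at most a closing a, l or x, together with Rplp0, Rplp1, Rplp2 and Rpsa. The S6 kinases and the pseudogenes, whose symbols begin in the same way, were left out. This gave 80 of 21829 protein-coding genes, 31 of the small and 49 of the large subunit, on 19 chromosomes, with 14 of them on chromosome 7. Rps3a1 and 5 other genes for ribosomal proteins, among them Rpl36al, Rpl22l1, Rpl7l1 and Fau, have symbols outside this form and were not counted.

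The data are DNase-seq of 3T3-L1, an immortalized mouse line of embryonic fibroblasts that can turn into fat cells and whose strain is labelled C57BL/6J. DNase I cuts DNA where it is not covered by nucleosomes, so clusters of cuts mark accessible chromatin, and accessibility is not a measure of RNA. The study holds 4 libraries from 2 biosamples of the line, with 2 technical libraries each. The labels name no treatment, give no age or sex, and leave it unsaid whether the 2 biosamples came from different cultures. The authors pooled the libraries of each biosample and deposited 1 list of peaks and 1 of hotspots (wider regions of raised cutting) for each. There were 298793 peaks in biosample 1 and 97430 in biosample 2, and the hotspots numbered 247031 and 88636. The lists hold no read counts, so the depth is unknown. With 1 list a biosample there was no spread between replicates, and no test could be made: shares are given with 95% Wilson intervals and medians with 95% order-statistic intervals, which cover counting error only. All 8 fibroblast marker genes examined (Vim, Col1a1, Col1a2, Col5a2, Pdgfra, Pdgfrb, Thy1 and Fn1) showed promoter peaks in both lists, and none of the 12 markers of blood, epithelium, hepatocytes, endothelium or pluripotent cells had one in either.

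Each cytosolic ribosome joins a small subunit, which reads the messenger RNA, to a large subunit, which forms the peptide bond, and both need equal supplies of many proteins made from genes scattered over the genome. These genes are among the most actively transcribed by RNA polymerase II in growing cells, and their messengers typically begin with a run of pyrimidines, the terminal oligopyrimidine tract, through which the kinase mTOR and the protein LARP1 set their translation. Many of the genes also carry small nucleolar RNAs in their introns, and their messengers have given rise to large numbers of processed pseudogenes.

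The pyrimidine tract could be read at the annotated start site of a minority of the genes. A run of at least 8 pyrimidines on the gene's strand met the 10 bases around the principal start site in 21 of 80 genes (26.2%, 17.9 to 36.8), against 9.15% of all protein-coding genes. A total of 8 members had a run of at least 12 bases (10%), against 2.74% of all genes. Of these 8 members, 7 are shown because they carry the feature by which the messengers are known. Each stretch is mm10 sequence from 30 bases before the principal start site to 25 bases after it, written 5′ to 3′ on the gene's strand, and capitals mark the pyrimidine run.
Rpl22, chr4:152325837-152325891, plus strand: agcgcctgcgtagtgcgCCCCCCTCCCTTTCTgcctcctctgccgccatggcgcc
Rpl26, chr11:68901553-68901607, plus strand: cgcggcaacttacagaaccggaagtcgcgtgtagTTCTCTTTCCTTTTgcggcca
Rpl29, chr9:106429424-106429478, plus strand: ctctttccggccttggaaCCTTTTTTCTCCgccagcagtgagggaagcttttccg
Rpl31, chr1:39367812-39367866, plus strand: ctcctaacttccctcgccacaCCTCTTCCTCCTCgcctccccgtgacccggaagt
Rpl37a, chr1:72711260-72711314, plus strand: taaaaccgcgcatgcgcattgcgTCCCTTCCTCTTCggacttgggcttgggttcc
Rpl4, chr9:64173345-64173399, plus strand: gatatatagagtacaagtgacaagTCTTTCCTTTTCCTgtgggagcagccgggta
Rps24, chr14:24490688-24490742, plus strand: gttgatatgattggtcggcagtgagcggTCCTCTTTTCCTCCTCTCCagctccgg
Rps24, a small-subunit protein altered in some people with Diamond-Blackfan anaemia, had the longest run at 19 bases, and Rpl22, a large-subunit protein, had a run of 15 bases. All of the run in Rpl29, and most of it in Rpl22, Rpl31 and Rpl37a, lay before the annotated start site. The count depended on the start site used. Any annotated start site of the gene gave 43 of 80, against 18.5% of all genes, and a run anywhere from 50 bases before to 100 after the principal site was found in 67, against 47.0%. The base at the principal start site was C in 25 of 80 genes (31.2%), against 17.5% of all genes, and T in 4 (5%), against 11.2%. The start sites in RefSeq could be compared for 60 members. They were on the same base in 14, within 10 bases in 23 and over 50 bases away in 19.

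Of 10 consensus motifs searched on both strands from 250 bases before to 50 after the principal start site, CTCGCGAGA had the largest ratio to its share in all protein-coding genes. This element, most of a palindrome found in the core promoters of many housekeeping genes, occurred in 9 of 80 members (11.2%, 6.03 to 20.02), against 0.893% of all protein-coding genes and 1.5% of those with a promoter peak in both lists. Carriers were Rpl10a, Rpl17, Rpl26, Rpl27a, Rpl4, Rps28 and Rps6, among others, the last named being the small-subunit protein phosphorylated by the S6 kinases. In 8 of them the match lay no farther than 100 bases before the start site. The sites of 6 carriers are shown in mm10 because so few promoters hold this element, 5′ to 3′ on the gene's strand. Capitals mark the match, on either strand, and cover 10 bases where both strands match.
Rpl10a, chr17:28328519-28328558, plus strand: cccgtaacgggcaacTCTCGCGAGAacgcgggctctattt
Rpl26, chr11:68901525-68901564, plus strand: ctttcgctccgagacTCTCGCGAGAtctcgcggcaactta
Rpl27a, chr7:109519158-109519196, plus strand: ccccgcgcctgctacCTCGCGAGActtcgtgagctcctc
Rpl4, chr9:64173125-64173156, plus strand: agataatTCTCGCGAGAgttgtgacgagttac
Rps28, chr17:33824539-33824578, minus strand: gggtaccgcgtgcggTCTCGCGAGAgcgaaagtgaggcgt
Rps6, chr4:86857394-86857433, minus strand: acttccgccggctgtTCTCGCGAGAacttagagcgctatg
Except in Rpl27a, both strands matched at these 6 sites, so that the whole palindrome was present. Counted separately over the letters of the strongest promoter peak of biosample 1, a match was found in 8 of 78 members, against 1.02% of all genes with such a peak. The 9 carriers had a median score percentile of 96.8 in biosample 1 and 91.1 in biosample 2, and the 68 other members with a peak in both lists had 97.0 and 92.5.

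The ETS motif CCGGAAG, the core recognised by ETS factors such as GABPA, was present in 25 of 80 members (31.2%, 22.2 to 42.1), against 11.2% of all genes and 18.5% of genes open in both lists. Of the carriers whose sequence is printed here, the 5 with the highest scores are shown to place the motif beside the strongest promoters. Capitals mark the match nearest the start site, written as CCGGAAG or, where it is on the other strand, as CTTCCGG.
Rps21, chr2:180257338-180257374, plus strand: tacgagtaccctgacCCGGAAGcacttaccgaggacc
Rpl37, chr15:5116632-5116668, plus strand: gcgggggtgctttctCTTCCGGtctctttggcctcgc
Rps2, chr17:24719921-24719957, plus strand: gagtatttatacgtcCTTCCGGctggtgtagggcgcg
Rps26, chr10:128626699-128626735, minus strand: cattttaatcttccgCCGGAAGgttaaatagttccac
Rpl15, chr14:18271027-18271063, minus strand: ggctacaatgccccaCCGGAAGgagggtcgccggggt
Rps21, Rps2 and Rps26 are small-subunit proteins, Rpl37 is a zinc-binding large-subunit protein and Rpl15 is another protein of the large subunit. The 24 ETS carriers with a peak in both lists had a median percentile of 97.2 in biosample 1 and 94.3 in biosample 2, and the 53 members without the motif had 96.8 and 91.6. A total of 4 members held both ETS and CTCGCGAGA matches, which was not counted for all genes.

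The other 8 motifs had smaller ratios to their shares in all genes than CTCGCGAGA and ETS had. The SP/KLF motif GGGCGG occurred in 41 members (51.2%), against 45.4% of all genes but 63.1% of genes open in both lists. The NF-Y motif CCAAT occurred in 25, against 38.6% of all genes and 39.7% of genes open in both lists. The MYC and USF motif CACGTG (E-box) occurred in 9, against 7.7%, the CREB motif TGACGTCA in 5, against 2.48%, the YY1 motif AAGATGGCG in 4, against 1.85%, the AP-1 motif TGANTCA in 4, against 6.68%, and the NRF1 motif GCGCATGCG in 2, against 2.51%. Among genes open in both lists the shares of members and of all genes were 11.7% and 10.0% for the E-box and 6.49% and 3.47% for CREB. For YY1 they were 5.19% and 3.31%, for AP-1 5.19% and 4.96%, and for NRF1 2.60% and 3.77%. There CREB, with 5 carriers, had a larger ratio than ETS. TATAAA, the core of the TATA box, was found in 9, against 12.6%. Among genes open in both lists it was found in 9 of 77 members (11.7%, 6.27 to 20.7), against 7.40%. Within the strongest promoter peak of biosample 1, TATAAA was found in 8 of 78 members (10.3%, 5.29 to 18.95), against 2.52% of genes with a peak, while AP-1 was found in 1, against 7.38%. A total of 13 members held none of the 10 motifs, which was not counted for all genes. A match describes these letters in these windows and not the binding of a factor.

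**Figure D1:**
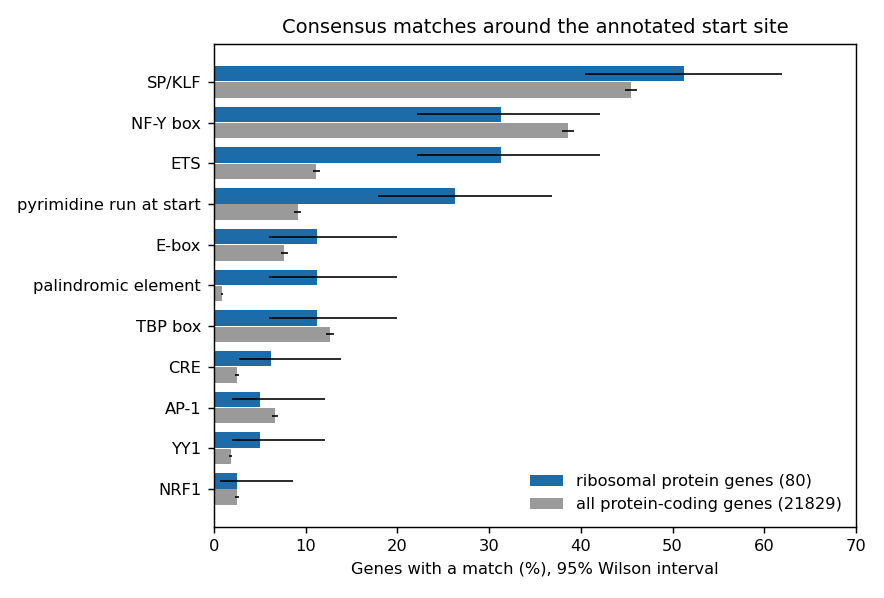
Share of genes (x axis, percent) with each motif from 250 bases before to 50 after the principal start site, and with a pyrimidine run of at least 8 bases at that site, for the 80 ribosomal protein genes and all 21829 protein-coding genes; lines are 95% Wilson intervals. The palindromic element is CTCGCGAGA, the NF-Y box is CCAAT and the TBP box is TATAAA; the ribosomal protein genes stand above all genes for the palindromic element (11.2% against 0.893%), ETS (31.2% against 11.2%) and the pyrimidine run (26.2% against 9.15%).

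Almost every ribosomal protein gene had an accessible promoter. Both lists held a peak no more than 1000 bp from an annotated start in 77 of 80 genes (96.2%, 89.5 to 98.7), against 51.8% of all protein-coding genes. In biosample 1 alone the count was 78, against 62.6%, and in biosample 2 alone it was 77, against 51.9%. All 31 small-subunit genes and 46 of the 49 large-subunit genes had a peak in both lists. The members are richer in CpG than most genes: 65 of 80 had an observed over expected CpG ratio of at least 0.6 in the same 300 bases, against 46.8% of all genes. Within that class 63 of 65 members had a peak in both lists, against 79.8% of all genes.

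The 3 exceptions were paralogs that are known for expression in particular tissues. Rpl3l, the form of Rpl3 in heart and skeletal muscle, at chr17:24727820-24736143, had no promoter peak in either list. Rpl10l, an intronless copy of the X-linked gene Rpl10 that serves male germ cells, at chr12:66283379-66284401, had none either. Rpl39l, the testis form of Rpl39, at chr16:10170226-10174911, had a peak in biosample 1 only, 536 bp before its start site, with a score of 29 (percentile 3.03), in a hotspot of 113 bp. Their broadly expressed partners all had peaks in both lists. Rpl3 scored 143 in biosample 1 and 79 in biosample 2, Rpl10 scored 144 and 89, and Rpl39 scored 127 and 62. Rps27l, a p53-induced paralog of Rps27, was the 1 such paralog with a peak in both lists, at scores of 139 and 66, while Rps27 had 147 and 97. The start regions of the pairs are shown so that each copy can be set beside its partner. Each runs in mm10 from 40 bases before the principal start site, 5′ to 3′ on the gene's strand, and capitals begin at that site.
Rpl3, chr15:80083387-80083446, minus strand: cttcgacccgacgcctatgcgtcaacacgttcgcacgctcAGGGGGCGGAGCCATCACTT
Rpl3l, chr17:24727780-24727839, plus strand: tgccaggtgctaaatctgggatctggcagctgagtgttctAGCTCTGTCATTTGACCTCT
Rpl10, chrX:74270772-74270831, plus strand: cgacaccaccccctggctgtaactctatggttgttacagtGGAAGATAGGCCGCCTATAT
Rpl10l, chr12:66284382-66284441, minus strand: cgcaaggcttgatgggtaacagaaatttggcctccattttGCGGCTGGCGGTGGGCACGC
Rpl39, chrX:37085383-37085442, minus strand: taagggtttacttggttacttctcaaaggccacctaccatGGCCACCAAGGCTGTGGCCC
Rpl39l, chr16:10170188-10170247, plus strand: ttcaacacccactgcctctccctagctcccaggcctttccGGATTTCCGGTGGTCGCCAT
Rps27, chr3:90213632-90213691, minus strand: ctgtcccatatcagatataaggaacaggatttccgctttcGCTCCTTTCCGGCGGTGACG
Rps27l, chr9:66946046-66946105, plus strand: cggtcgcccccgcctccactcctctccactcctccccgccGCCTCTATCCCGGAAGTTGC
The CpG ratio was 0.0893 at Rpl3l and 1.12 at Rpl3, but 0.643 at Rpl10l and 0.836 at Rpl39l, above the limit of 0.6 that defines the CpG-rich class. Rpl39, with peaks in both lists, had a ratio of 0.328. Both Rpl10l and Rpl39l also had the fewest distal peaks of all members in biosample 1, 3 and 4.

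Where both lists had a promoter peak it was mostly among the stronger peaks of its list. The deposited score of a peak is a whole number of at most 150 whose definition is not given in the sources used here, so each score was turned into a percentile of its own list. The strongest promoter peak of the 77 members had a median percentile of 96.8 in biosample 1 (96.4 to 97.9; range 85.6 to 99.97), against 95.5 for all genes open in both lists. In biosample 2 the median was 91.6 (90.6 to 94.7; range 46.3 to 99.7), against 86.4. The peak was in the top 10% of the list for 73 of 78 members in biosample 1, against 66% of all genes with a peak, and for 53 of 77 in biosample 2, against 40.2%. The members spread over a narrower range in biosample 1, with quartiles of 95.5 and 98.6, than in biosample 2, with 86.4 and 96.3. So did all genes open in both lists, with quartiles of 91.1 and 98.3 in biosample 1 and 70.3 and 94.3 in biosample 2. Across the 77 members the percentiles of the lists had a Spearman rho of 0.697, and across all 11318 genes open in both lists it was 0.883. This is a description across genes that share the same libraries.

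The highest mean percentile was that of Rpl27, a large-subunit protein, with scores of 150 and 104 in biosamples 1 and 2. Rps21, a small-subunit protein, had 147 and 107. Rps27 had 147 and 97, and Rps29, a zinc-binding small-subunit protein, had 145 and 96. Rpl37 and Rps19 both had 147 and 92. Rps19 is the gene most often altered in Diamond-Blackfan anaemia in people. Rpl13a, known in human cells for a second role in silencing inflammatory messengers, had 145 and 95. Rpl41, the smallest ribosomal protein, had 145 and 93. These genes were all at or above the percentile of 98.1 in both lists.

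Among the lowest mean percentiles of members with a peak in both lists was that of Rps4x, the X-linked small-subunit protein, whose scores of 127 and 37 were at percentiles 91.5 and 57.3. Rps24 had 123 and 43, and Rpl4, which lines the tunnel through which the new protein leaves, had 133 and 46. These 3 were lower in rank in biosample 2 than in biosample 1. So were the median percentiles of the members (96.8 and 91.6 in biosamples 1 and 2) and of all open genes (95.5 and 86.4). Rpl31 had 115 and 54, and Rpl5, which with Rpl11 binds the smallest ribosomal RNA of the large subunit, had 118 and 58. Rpl31 and Rpl5 had the lowest scores of all 77 in biosample 1. Rpl19 had 129 and 55, Rps20 had 132 and 57, and Rpl35a had 139 and 55. The strongest peaks of Rpl4 and Rpl35a also lay within 1000 bp of the start of another gene, Zwilch and Iqcg.

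The strongest and the weakest promoter peak windows of biosample 1 that cover the principal start site, ranked by mean percentile, are shown to set the ends of this range beside each other. They are 150 bp of mm10 sequence, 5′ to 3′ on the gene's strand, with capitals from the principal start site on.
Rpl27, chr11:101442196-101442345, plus strand: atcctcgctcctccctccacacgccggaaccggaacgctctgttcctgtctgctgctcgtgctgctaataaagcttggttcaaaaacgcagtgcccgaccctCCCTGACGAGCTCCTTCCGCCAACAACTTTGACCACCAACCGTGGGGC
Rps4x, chrX:102189316-102189465, minus strand: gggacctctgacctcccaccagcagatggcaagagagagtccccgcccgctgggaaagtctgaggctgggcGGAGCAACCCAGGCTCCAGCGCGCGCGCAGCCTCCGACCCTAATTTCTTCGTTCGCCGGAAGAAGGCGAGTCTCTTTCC
The Rpl27 window held none of the 10 motifs, and the Rps4x window held GGGCGG on both strands and CCGGAAG.

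**Figure D2:**
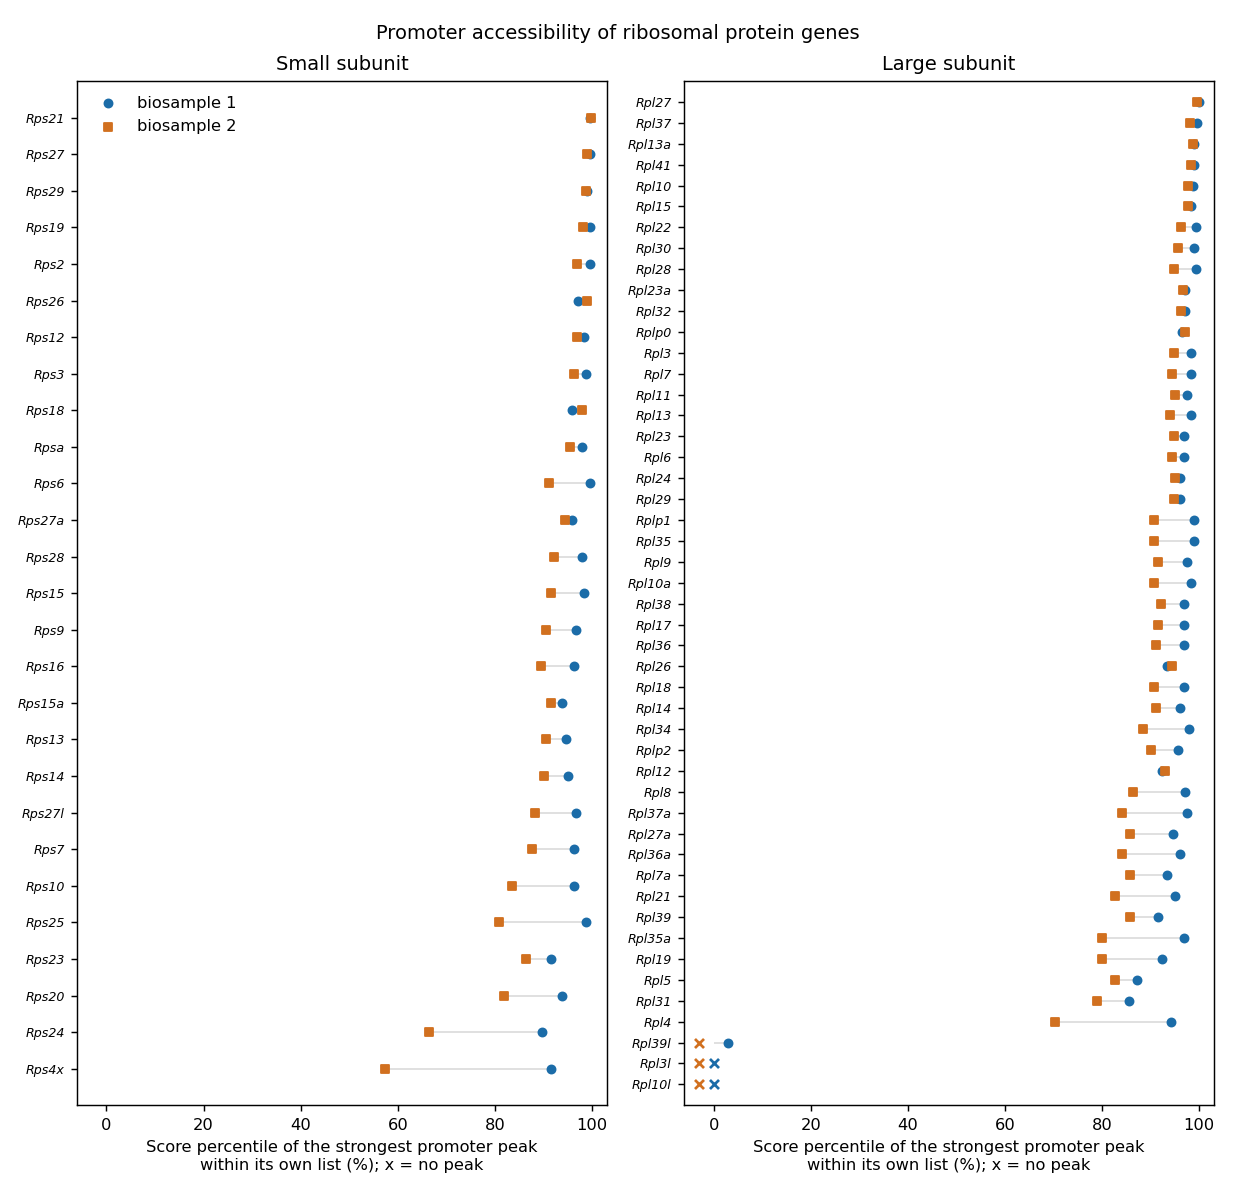
Percentile (x axis, percent of the peaks of the same list) of the strongest promoter peak of 75 of the 80 ribosomal protein genes, small subunit on the left and large subunit on the right, ordered by the mean over both lists; circles are biosample 1, squares are biosample 2, and crosses at the left mark genes without a peak. Most circles lie above 90, the squares reach down to 57.3 at Rps4x, and Rpl3l, Rpl10l and Rpl39l stand apart at the bottom.

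The subunits had overlapping intervals. The median percentile was 96.8 (96.0 to 98.3) for the small and 97.0 (96.4 to 98.3) for the large subunit in biosample 1, and 91.6 (88.3 to 96.9) and 92.5 (90.6 to 94.7) in biosample 2. The stalk of the large subunit, which recruits the translation factors with GTPase activity, is built from Rplp0, Rplp1 and Rplp2, and these scored 138 and 87, 145 and 70, and 136 and 69. Rpsa, a small-subunit protein also described as a laminin receptor, had 142 and 81. Of the 4 X-linked members, Rpl10 had 144 and 89, Rpl36a had 137 and 60, Rpl39 had 127 and 62 and Rps4x had 127 and 37. X-linked genes open in both lists had median percentiles of 94.2 and 80.9 (343 genes), lower than those of all open genes. Peaks were present in both lists at all 9 members from the list of genes altered in Diamond-Blackfan anaemia in people, with median percentiles of 96.4 and 83.4. They ranged from Rps19 and Rps26, which had 140 and 98, through Rpl11 with 141 and 80, Rps7 with 138 and 65 and Rps10 with 138 and 59, to Rpl5, Rpl35a and Rps24.

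The strongest peaks were centred just before the start site. The median offset of the peak centre from the nearest start site was -53 bp in biosample 1 (-71 to -37; quartiles -88 and -14) and -44 bp in biosample 2 (-60 to -32; quartiles -83 and -12), where negative values are before the start. For all genes open in both lists the medians were close, -51 and -55 bp, but the quartiles were wider, -122 and 0 in biosample 1 and -126 and -5 in biosample 2. The centre lay between 150 bp before and 50 bp after a start site in 68 of 77 members in each list (88.3%), against 65.8% and 65.9% of all genes. It was before the start site in 63 members in biosample 1 (81.8%), against 74.7% of all genes open in both lists. In biosample 2 it was before the start site in 61 (79.2%), against 76.9%. A start site lay inside a promoter peak in both lists in 44 of 80 members, against 27.2% of all genes, and among genes open in both lists in 44 of 77, against 52.5%.

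The position of the strongest peak was nearly the same in both biosamples. The windows were identical in 27 of 77 members, lay within 40 bp of each other in 69 and met in 75. The same was not counted for all genes, so it is not known to be particular to the members. Any promoter peaks of the lists met in 77 of 80 members and in 51.7% of all genes, of which 51.8% were open in both lists. The members farthest from a start site were Rpl4, at -445 and -405 bp in biosamples 1 and 2, and Rpl35, at 394 and 434 bp. The Rpl4 peaks also lay within 1000 bp of the start of Zwilch, and in each list another peak covered the start site of Rpl4. Rpl32 was at -303 bp in both, and Rpl37 was at -275 and -135 bp. Rps25, a small-subunit protein needed by some internal ribosome entry sites, was at 251 bp in biosample 1. In biosample 2, where it had 1 promoter peak, it was at -125 bp from another of its start sites. From the principal start site these peaks lay at 251 and 431 bp. Both Rps25 peaks also lay within 1000 bp of the start of Trappc4.

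**Figure D3:**
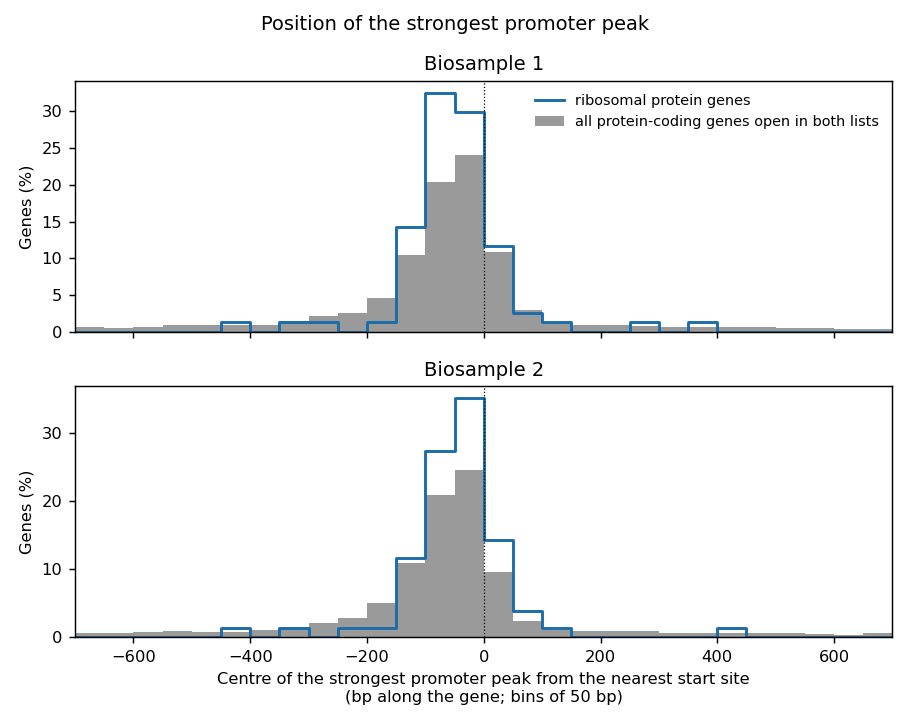
Distribution of the distance from the nearest start site to the centre of the strongest promoter peak (x axis, bp along the gene, negative before the start, bins of 50 bp) as a percent of genes (y axis), for the 77 ribosomal protein genes (line) and all 11318 genes open in both lists (bars), in biosample 1 above and biosample 2 below. In each list 68 of the 77 ribosomal protein genes lie between 150 bp before and 50 bp after a start site.

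The hotspots around these peaks were narrower than those of all open genes in biosample 1. In biosample 2 the interval of the members included the median of all open genes. The hotspot at the strongest promoter peak had a median width of 1255 bp in biosample 1 (1147 to 1453), against 1754 bp for all genes open in both lists, and of 516 bp in biosample 2 (454 to 620), against 581 bp. Hotspots of at least 2000 bp were found at 11 of 77 members in biosample 1, against 38.4% of all genes. The members are short genes, with a median length of 3328.5 bp against 17396 bp. Among genes of at most 10358 bp the medians were 1255 bp for members and 1568 bp for all in biosample 1, and 516 and 537 bp in biosample 2. A single promoter peak was present in biosample 2 in 41 of 77 members (53.2%), against 41.2%, but in biosample 1 in 2 of 77 (2.60%), against 8.11%. The median number of promoter peaks was 4 in biosample 1, against 3 for all open genes, and 1 in biosample 2, against 2. Among genes of at most 10358 bp it was 3 for members and 3 for all in biosample 1, and 1 and 2 in biosample 2. The deposited −log10 q value of the hotspot was at its cap of 100 for all 77 members in biosample 1 and 73 in biosample 2, against 99.7% and 79.2% of all genes.

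The narrowest hotspot was that of Rps29, 159 bp in both lists, although its peak scores of 145 and 96 were among the highest. Rpl5 had 305 bp in both, Rpl24, which forms a bridge between the subunits, had 386 and 325 bp, and Rpl27 had 500 and 419 bp. The widest in biosample 1 was that of Rpl7, at 3006 and 1014 bp in biosamples 1 and 2. The strongest Rpl7 peaks also lay within 1000 bp of the start of Rdh10. Rpl38, which in mice is needed for the translation of Hox messengers, had 2793 and 284 bp. Rpl39 had 2526 and 786 bp, Rpl22 had 2462 and 615 bp, and Rps12 had 2307 and 679 bp. Width and score were thus not ordered alike: Spearman's rho between them across the 77 members was 0.175 in biosample 1 and 0.125 in biosample 2, against 0.377 and 0.567 across all open genes.

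**Figure D4:**
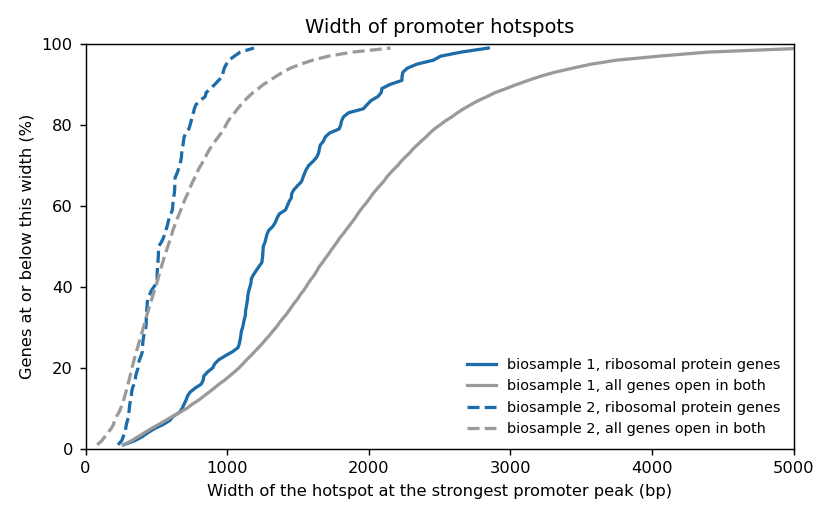
Cumulative share of genes (y axis, percent) by the width of the hotspot at the strongest promoter peak (x axis, bp), for the 77 ribosomal protein genes and all 11318 genes open in both lists; solid lines are biosample 1 and dashed lines biosample 2. In biosample 1 the ribosomal protein genes reach their median at 1255 bp and all genes at 1754 bp, and in biosample 2 the medians are 516 and 581 bp.

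Many of the genes host small nucleolar RNAs, which guide the modification of ribosomal RNA. An annotated small nucleolar RNA lay inside 29 of 80 members (36.2%, 26.6 to 47.2), against 1.17% of all protein-coding genes, and the members held 56 of the 364 that lie in protein-coding genes. The hosts were 20 of 49 large-subunit and 9 of 31 small-subunit genes. Rpl4 held 5, and Rpl13a held 4, Snord32a, Snord33, Snord34 and Snord35a. Hosts and other members had median promoter percentiles of 96.8 and 97.0 in biosample 1 and of 94.3 and 91.4 in biosample 2. A protein-coding gene transcribed away from the member began within 1000 bp in 10 of 80 (12.5%), against 8.47% of all genes, and among genes open in both lists in 10 of 77 (13.0%), against 15.2%. These pairs were Rpl12 with Lrsam1, Rpl15 with Nkiras1, Rpl18 with Sphk2, Rpl35a with Iqcg, Rpl4 with Zwilch, Rpl7a with Med22, Rpl9 with Lias, Rps18 with Vps52, Rps27 with Rab13 and Rps28 with Ndufa7. In 14 of 77 members the strongest peak lay within 1000 bp of another gene's start site, so that it cannot be told apart which gene it belongs to. These members include Rpl4, Rpl7, Rpl35a, Rps25 and Rps27. The other 63 had median percentiles of 97.2 and 91.6.

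Distal peaks, those farther than 1000 bp from every start of a coding gene, were counted within 50 kb of each member. The median was 20 in biosample 1 (18 to 22), against 14 for all protein-coding genes and 17 for genes open in both lists. In biosample 2 it was 4 (3 to 6), against 4 and 5. Every member had at least 1 in each list. The same was not counted for all protein-coding genes, whose lower quartiles were 8 and 2 in biosamples 1 and 2. The neighbourhoods were gene-rich, with a median of 3 other genes starting within 50 kb, against 2 for all genes. In biosample 1 the most distal peaks lay around Rps14, a small-subunit protein, with 51, and it had 12 in biosample 2, where Rps16, another small-subunit protein, had the most with 16. Rps20 had 45 and 10, Rps21 had 45 and 4, Rpl19 had 41 and 15, and Rpl10a had 39 and 14. After Rpl10l and Rpl39l the fewest in biosample 1 were at Rpl10, with 6 and 4, and at Rpl28 and Rps7, with 8 and 2 each.

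Of the 1707 distal peaks around members in biosample 1, 24.4% met a peak of biosample 2, against 27.9% of all distal peaks. Of the 435 in biosample 2, 95.2% met a peak of biosample 1, against 94.7%. Their median percentiles were 51.2 and 55.6, against 46.9 and 46.3 for all distal peaks. The nearest gene was a member for 638 of the 1707 distal peaks in biosample 1 and for 139 of the 435 in biosample 2. Of the 10 strongest shared distal peaks, 9 lay nearer to the start of another gene. The strongest were a pair around Rps28, with scores of 148 and 97 and of 148 and 93, nearest to Angptl4, a secreted inhibitor of lipoprotein lipase. Others were nearest to Ndst1 around Rps14, with scores of 147 and 90, and to Lactb around Rps27l, with 145 and 84. The 1 peak whose nearest gene was the member itself lay 27783 bp after the start site of Rpl27a, at chr7:109546856-109547005, with scores of 140 and 86.

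Fewer of the pseudogenes than of the genes had a peak nearby. A total of 288 annotated pseudogenes have symbols of the form Rpl or Rps with digits followed by ps, all but Rpl48-ps1 after the symbol of a member, most of them intronless copies inserted elsewhere. A peak lay within 1000 bp of the start in both lists in 17 (5.90%, 3.72 to 9.25), and within 500 bp in 3. In biosample 1 alone it was 54 (18.8%), and in biosample 2 alone 17. A peak inside the pseudogene itself was found in 6 in biosample 1 and 3 in biosample 2. The 17 had median percentiles of 82.9 in biosample 1 and 30.8 in biosample 2. The highest were Rpl29-ps2, with scores of 132 and 63, Rpl9-ps3, with 128 and 53, Rps15a-ps2, with 122 and 54, Rpl35a-ps3, with 130 and 48, and Rpl34-ps1, with 110 and 42. Of these, Rpl29-ps2 lay 160 bp and Rpl35a-ps3 966 bp from the start site of a protein-coding gene. How the authors treated reads that match both a gene and its copies is not given in the sources used here, and its part in the low share was not tested.

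Other genes of translation also had open promoters. Both lists had promoter peaks at all 78 mitochondrial ribosomal protein genes, with median percentiles of 96.2 and 86.3. Set beside the cytosolic genes they had these values: CTCGCGAGA was found in 2 of 78 and a pyrimidine run of at least 8 in 6, while ETS was found in 29, the median offsets were -26.5 and -28.5 bp and the median hotspot widths were 1481 and 587 bp. No mitochondrial ribosomal protein gene hosted a small nucleolar RNA. The ribosome biogenesis factors were open in 36 of 36, with median percentiles of 97.2 and 93.5. The initiation factors were open in 42 of 45, all but Eif2s3y, Eif3j2 and Eif4e1b. The elongation and termination factors were open in 15 of 16, all but Eef1a2, the form found in muscle and neurons. A pyrimidine run of at least 8 was found in 10 of 45 initiation, 4 of 16 elongation and termination and 6 of 36 biogenesis factors. In the same order, ETS was found in 15, 4 and 18, CTCGCGAGA in 0, 1 and 1, and hosts of small nucleolar RNAs numbered 6, 4 and 6. The S6 kinases were open in 9 of 10, all but Rps6kl1, and the 5 ribosomal protein genes outside the symbol rule were open in 5 of 5.

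**Figure D5:**
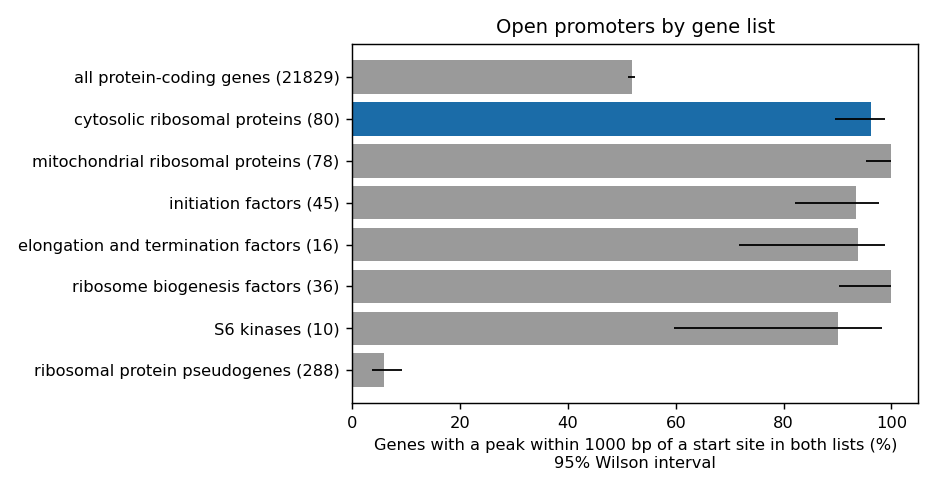
Share of genes (x axis, percent) with promoter peaks in both lists, for each gene list with the number of genes in parentheses; lines are 95% Wilson intervals. The cytosolic ribosomal protein genes (96.2%) and the other translation lists lie above all protein-coding genes (51.8%), and the ribosomal protein pseudogenes (5.90%) lie far below.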

How the data were processed

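DNase-seq peaks and hotspots of 4 libraries were grouped by the biological replicate number in the labels. Per the labels, the authors made 1 pooled alignment for each biosample and called both lists on it in mm10. No aligner, peak caller or read filter is given in the sources used here. The authors' score of a peak served only as a percentile within its deposited list (rank less 0.5, over the number of peaks). The hotspot files hold −log10 q values capped at 100, as deposited.

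Members and lists were chosen with earlier results of these data known. GENCODE M21 genes gave 54355 start sites after 27 repeated records were merged. The reference GRCm38.p6 has the mm10 sequences, and all intervals lay inside its chromosomes. A gene was open when a peak of each list lay within 1000 bp of any start site. The principal start site came from APPRIS, then transcript support level, then transcript length. RefSeq start sites came from a table of promoters of the mouse reference. Every member was counted. Those named were the 10 highest and 10 lowest in mean percentile, those without a peak, the extremes of 5 in distal peaks, offset and hotspot width, the paralog, stalk, X-linked and Diamond-Blackfan lists, the 10 strongest shared distal peaks and 5 pseudogenes. A few of these members are not reported here. Names of carriers and partners, and the narrowest hotspots, were added after their values were seen. Counting was tested on simulated data. Depth is unknown, so intervals cover counting error only. Python 3.11.15, pandas 2.3.3, scipy 1.17.1, pysam 0.24.0 and samtools 1.23.1 were used. Alternatives are listed at the end.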

Additional observations from a re-analysis of the deposited data

How the results depend on the processing

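Open promoters in both lists were counted in 72 to 78 of 80 members over the other windows, start sites, score limits, overlaps and single lists tried, and in 76 of 76 without the 4 paralogs, in 82 of 85 with 5 genes added and in 83 of 86 with 6. Of 84 recomputed values, 65 stayed within their limits and 19 moved. Measured from the nearest edge of the peak, the median offset was 0 in both biosamples, since the window then mostly covers the start site. The median number of distal peaks in biosample 1 was 9.5 within 20 kb (6 for all genes), 36.5 within 100 kb (29) and 10 with the stronger 50% of the list (6). In biosample 2 it was 2, 9 and 2 (1, 8 and 2). With the window limited to 100 bases before the start site, the E-box was found in 3 members and AP-1 in 0. In the strongest peak of biosample 1, YY1, NRF1 and AP-1 were found in 1 each. NRF1 was found in 1 with the most upstream start sites and in 3 of 60 with RefSeq start sites. The pyrimidine run was found in 43 at any start site and in 67 in the wider window, and pseudogenes with a peak numbered 3 within 500 bp and 54 in biosample 1 alone; the causes of these moves were not tested beyond the change of window, start site or list. The RefSeq start sites, the peak window, the wider tract window, the paralog and 6-gene sets and the gene length limit were chosen after seeing the data. No paired analysis was possible because the authors pooled the libraries into 1 list for each biosample and the results come from no test, and for the same reason no single library could be left out. Shares of a few members in 80 and ranks in lists of unequal length limit every comparison.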

Other observations

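Rps2 starts 7569 bp from Rpl3l, and scored 147 and 86 where Rpl3l had no peak. Base composition and score were weakly related across the 77 members with a peak in both lists: the Spearman rho of the CpG ratio with the percentile was 0.210 in biosample 1 and 0.00383 in biosample 2. The members with a CREB motif, Rpl13, Rpl26, Rpl27a, Rps29 and Rps9, had a median offset of 0 and 16 bp in biosamples 1 and 2, and the other 72 had -61 and -46 bp.

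TATAAA carriers, Rpl3, Rpl30, Rpl36a, Rplp0, Rps14, Rps2, Rps20 and Rps28 among them, had median percentiles of 96.4 and 92.1, and the other 68 members had 97.0 and 91.6. Members with a pyrimidine run at the principal start site had median percentiles of 97.2 and 91.6, and those without had 96.8 and 91.8, and their median offsets were -76 and -79 bp against -43.5 and -39 bp. The AP-1 carriers were Rpl22, Rpl9, Rps23 and Rps3.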
